A study of Mus musculus with 24 samples.

Results

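The islets of NOD mice were followed here in the NOD channel alone: 6 mice at 20 weeks of age were set against 6 mice at 4 weeks, without dividing by the control pool hybridised to the same arrays. The 12 arrays were taken from a series of 24 by the age and strain in their labels, and no measured value entered that choice. Every mouse was a female NOD/LtJ animal, none is described as treated, and each gave islets by collagenase digestion, from which 300 ng of RNA was labelled with Cy5. In the Cy3 channel was RNA pooled over 6 age-matched females of NOD.B10Sn-H2b/J, which have the NOD background but carry H2b in place of the NOD haplotype at the major histocompatibility complex (MHC). It was read as 1 pool per age, so its values are given beside the results with no test. Where a change was divided by the pool, the limma p-value rests on the spread of the arrays. It does not measure the spread between pools. Replicates of an age are separate mice, called mouse 1 to mouse 6 after the numbers in the labels.

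The NOD mouse develops autoimmune diabetes. Lymphocytes and myeloid cells gather first around and then inside the islets, a process called insulitis, and beta cells are lost later. Infiltrates can take on features of lymphoid tissue, with T and B cell areas and high endothelial venules, the vessels through which lymphocytes leave the blood. T cells release interferon gamma, which induces genes of antigen presentation and the chemokines that draw more T cells. Hand isolated islets also carry acinar and duct cells, so a whole preparation mixes all of these. In such bulk RNA, fewer cells of a type and less RNA per cell cannot be told apart.

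The preparations held islet RNA by its defining markers, together with acinar RNA. The median log2 intensity of Ins1, one of the insulin genes, was 16.02 at 4 weeks and 16.70 at 20 weeks; for Gcg (glucagon) it was 15.62 and 15.43, for Sst (somatostatin) 15.33 and 15.94, and for Ppy (pancreatic polypeptide) 14.17 and 14.70. Iapp was not found by name. The elastase gene Cela1, of acinar cells, was as high, with a median of 16.88 and 16.79. All 28 acinar genes tested were well above background on all 12 arrays. The share of probes the scanner software called well above background was 50.7% to 58.1% on the 4 week arrays and 42.3% to 64.6% on the 20 week arrays. The weakest arrays were 20 week mouse 5 (42.3%) and mouse 6 (47.6%). Across genes, arrays of 4 week mice correlated at 0.961 to 0.992 and those of 20 week mice at 0.885 to 0.986. Mouse 5 at 20 weeks stood apart: its median correlation was 0.916 with its own age and 0.932 with the 4 week mice. The 2 ages lay on different slides, 2 slides each, so slide and age cannot be told apart as fixed terms; with slide as a random block the correlation was estimated at -0.04 and 925 genes were called.

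Of 15912 genes tested, 920 (5.78%) were called, with a limma adjusted p under 0.05 and at least a 2-fold change. The number higher at 20 weeks was 724 (4.55%), and 196 (1.23%) were lower. The median gene changed by -0.09 on the log2 scale. All 6 mice of 20 weeks lay above all 6 of 4 weeks for 1035 genes (6.5%) and below them for 1111 (6.98%), and the call added the size of change: 607 of the genes called higher and 76 of those called lower showed no overlap. In the pool, with no test, 243 genes (1.53%) differed at least 2-fold between the ages, 160 (1.01%) higher and 83 (0.522%) lower at 20 weeks; of the genes called higher or lower in the NOD channel, 119 and 17 did so in the same direction. The split of calls moved with the scaling. Genes called higher made up 78.7% of the calls after quantile normalization, 58.7% after scaling to the 75th percentile and 46.1% after scaling to the median, where the median gene stood at -0.19. The count of lower genes was also the one most touched by single animals: it was 459 without 20 week mouse 5 and 746 without mice 5 and 6, while 820 and 901 were then higher.

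**Figure D1:**
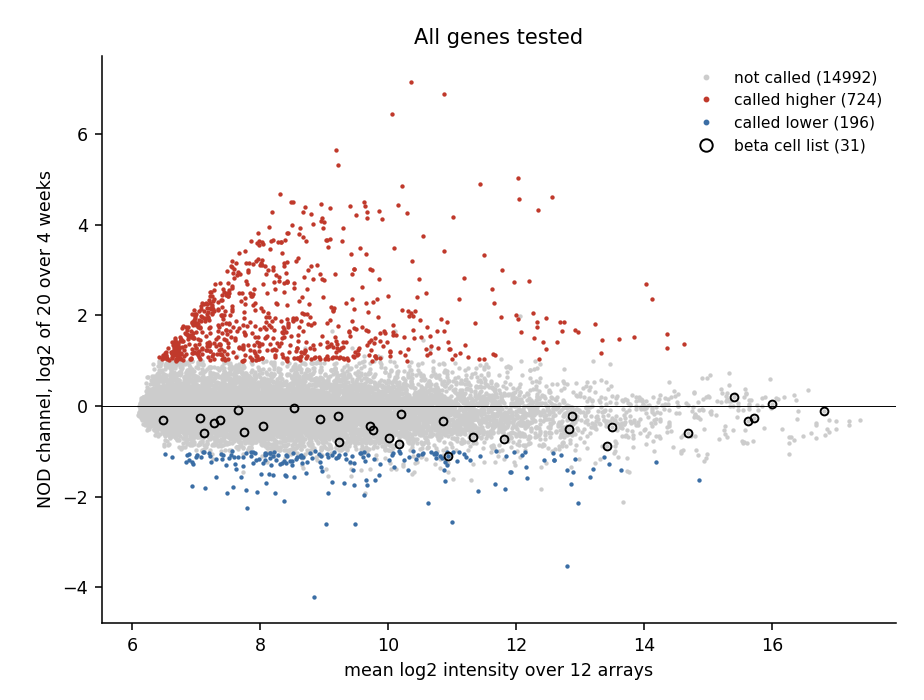
Log2 change in the NOD channel from 4 to 20 weeks (vertical axis) against the mean log2 intensity over 12 arrays (horizontal axis), 1 point per gene for 15912 genes. Red points are the 724 genes called higher, blue points the 196 called lower, and open circles the 31 beta cell genes tested, none of them called.

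The largest rises without overlap were those of Igh-VJ558, Jchain, Ubd, Ccl19, Cd74, Ighm, Lyz2 and H2-Ab1. Igh-VJ558, a probe for variable segments of the immunoglobulin heavy chain, was highest. Its log2 intensity ran from 6.17 to 8.39 at 4 weeks (median 6.24) and from 13.02 to 15.81 at 20 weeks (median 13.71), a change of 7.15 ± 0.51 (SE; 142-fold; limma adjusted p = 1.58e-06). Jchain, which joins IgA and IgM into polymers, followed at 5.65 ± 0.59. Its 4 week values were 5.93 to 8.04 (median 6.02) and its 20 week values 10.12 to 13.55 (median 12.41). The pool differed by 6.95 for Igh-VJ558 and by 4.91 for Jchain. Divided by the pool, their changes were 0.20 (limma adjusted p = 0.783) and 1.13 (limma adjusted p = 0.175), and neither was called. The antigen receptor segments come from a multigene family whose copies share sequence, so a single segment is uncertain; 3 of the 4 other Igh-VJ558 probes changed by 3.49 to 6.41, and the last one by -0.21.

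Ubd, a ubiquitin-like protein induced by interferon gamma and TNF, came next. It was 6.18 to 7.26 at 4 weeks (median 6.38) and 10.83 to 12.23 at 20 weeks (median 12.06). The change was 5.31 ± 0.25 in the NOD channel (limma adjusted p = 2.56e-07) and 1.34 in the pool. Ccl19, the CCR7 ligand of T cell areas, rose by 5.04 ± 0.38, from 8.5 to 10.75 (median 9.55) up to 13.33 to 15.07 (median 14.76), with 0.55 in the pool. Lyz2, the lysozyme of macrophages, rose by 4.61 ± 0.46, and its pool change was 1.74. None of these overlapped between the ages, which the rule that picked them required. Ighm, the IgM heavy chain, came closest to doing so: its highest 4 week value was 10.88, in mouse 5, and its lowest 20 week value 11.03.

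**Figure D2:**
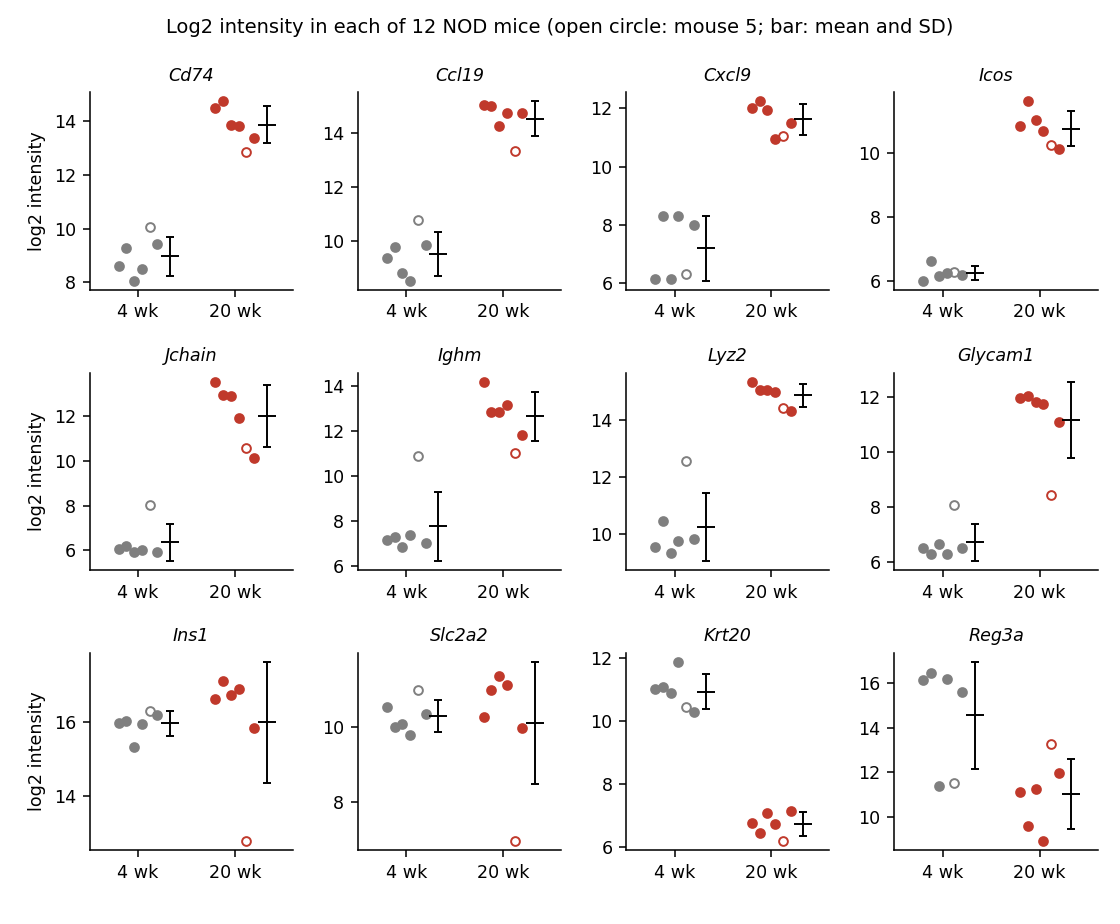
Log2 intensity of 12 genes (vertical axis, a separate scale for each gene) in the 6 mice of 4 weeks (grey) and the 6 of 20 weeks (red); open circles are mouse 5 of each age, and bars give the mean and SD. Cd74, Ccl19, Cxcl9, Icos, Jchain, Ighm, Lyz2 and Glycam1 separate the ages without overlap, and Krt20 does so downward. Ins1 and Slc2a2 are lowest in 20 week mouse 5, while most other 20 week values of Ins1 lie above the 4 week range.

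MHC class II presentation had the largest median change of the 32 lists. Of 12 genes 11 were tested and 10 rose, with none lower and a median of 3.62 against -0.09 over all genes tested. Of the 11, 6 were well above background on all 12 arrays, and all 6 rose. Cd74, the invariant chain that guides class II molecules to the endosome, had 4 week values of 8.06 to 10.05 (median 8.93) and 20 week values of 12.88 to 14.75 (median 13.85). It rose by 4.89 ± 0.37 (29.6-fold, limma adjusted p = 2.46e-06). The alpha chain H2-Aa rose by 4.22 ± 0.26, the beta chains H2-Ab1 by 4.57 ± 0.42 and H2-Eb1 by 4.27 ± 0.32, and the peptide loading chain H2-DMb1 by 3.62 ± 0.23. Ctss, the protease that trims the invariant chain, rose by 4.17 ± 0.30, and Ciita, the class II transactivator, by 1.90 ± 0.26. H2-Ob missed the 2-fold floor at 0.97 ± 0.12. List means per mouse, as log2 differences from the 4 week mean, were -0.41 to 0.65 at 4 weeks, highest in mouse 5, and 2.5 to 3.81 at 20 weeks, lowest in mouse 5. The list median was 1.45 in the pool and 2.03 in the ratio to the pool. Without mouse 5 of both ages, a setting added after the values had been seen, 11 genes rose.

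Class II promoters are known to carry a Y box bound by NF-Y, and RefSeq promoters (GRCm38.p6; 250 bases upstream of the start) were read for it. The letters TGATTGG stood on either strand in 6 of the 8 class II genes with a promoter entry (75%), against 8.38% of 27025 genes with an entry and 10.8% of those tested here. The stretch around it is shown for 4 genes that rose, with the motif in capitals, to let the shared element be compared. A match describes the letters and is not a measured site. The letters are those of the reference genome and were not compared with the NOD haplotype of the MHC.
H2-Aa, chr17:34287847-34287893, minus strand, bases -70 to -24: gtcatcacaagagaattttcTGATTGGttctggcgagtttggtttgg
H2-Eb1, chr17:34305786-34305832, plus strand, bases -81 to -35: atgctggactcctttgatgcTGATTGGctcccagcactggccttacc
H2-DMb1, chr17:34153108-34153154, plus strand, bases -83 to -37: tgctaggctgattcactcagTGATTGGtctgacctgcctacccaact
H2-Oa, chr17:34092314-34092360, plus strand, bases -65 to -19: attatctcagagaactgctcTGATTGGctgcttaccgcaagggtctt

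MHC class I presentation rose as well. Of 20 tested, all well above background on all 12 arrays, 13 rose and none fell, with a median of 1.52. B2m, the light chain of class I, went from 8.72 to 10.45 (median 9.88) at 4 weeks to 12.08 to 13.90 (median 13.22) at 20 weeks, a change of 3.34 ± 0.32. H2-K1, a classical heavy chain, rose by 2.37 ± 0.29 with 0.15 in the pool, and H2-D1 by 1.80 ± 0.29. Heavy chain genes are near-identical copies, and their probes may read each other. The immunoproteasome subunits Psmb8 and Psmb9 rose by 2.49 ± 0.37 and 1.92 ± 0.31, and the peptide transporter gene Tap1 by 1.52 ± 0.26. After median scaling 5 class I genes were called.

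T cell genes rose in 18 of 22 tested. The list holds 28 genes, of which 27 have a probe; 16 of the 22 were well above background on all 20 week arrays and not on all 4 week arrays, so their place in the test rests largely on the 20 week mice. Of the 6 above background on all 12 arrays 3 rose, and the list median was 1.97 over the 22 and 0.52 with that filter. With no filter on dim probes 18 of 27 were called. The CD3 chains Cd3d and Cd3g rose by 3.94 ± 0.27 and 3.59 ± 0.23. Cd3d lay at 5.94 to 6.67 at 4 weeks (median 6.07) and at 9.12 to 11.03 at 20 weeks (median 10.03), and it was above background on 1 of the 6 arrays at 4 weeks. Icos, a costimulator of activated and follicular helper T cells, rose by 4.49 ± 0.22, from 6.01 to 6.63 (median 6.21) up to 10.11 to 11.60 (median 10.75). Cd8a rose by 2.51 ± 0.17, Cd5 by 3.46 ± 0.30, the kinase gene Lck by 2.84 ± 0.27 and the inhibitory receptor gene Pdcd1 by 2.58 ± 0.29. Ctla4 was not above background on any 4 week array and was at least 1.81-fold higher at 20 weeks, without being called. The 4 week mice differed little in the list mean, between -0.06 and 0.17, while the 20 week mice spread from 1.52 (mouse 5) to 2.54 (mouse 1). In the pool the list median was 0.19.

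A few T cell probes did not move with the rest. Cd3e, whose product joins the chains of Cd3d and Cd3g, read 6.65 to 7.32 at 4 weeks and 6.66 to 7.84 at 20 weeks, a difference of 0.10 ± 0.21 (limma adjusted p = 0.736). Its other probe was at 0.10 as well. Cd4 was at -0.08 ± 0.09 with a second probe at 0.10. For both Cd3e and Cd4, the second probe was above background on at most 2 of 6 arrays of an age. Foxp3, the regulatory T cell factor, was not above background on enough arrays to be tested.

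Among 10 cytotoxic and natural killer genes tested of 18, 9 rose; 8 of the 10 were well above background on all 20 week arrays and not on all 4 week arrays, and with no filter 9 of 18 were called. They included Nkg7 (3.24 ± 0.27), Tbx21, the factor of the T helper 1 program (2.42 ± 0.13), and Klrd1, which was not above background at 4 weeks and was at least 4.68-fold higher at 20 weeks. Ifng itself rose by 2.83 ± 0.34, from 5.93 to 6.70 (median 6.00) up to 8.02 to 10.45 (median 9.02), with 0.23 in the pool. Bounds of this kind set the 20 week mean against a floor on each 4 week array. The floor was the lowest signal that counted as above background, or the gene's own value where that was higher. A bound can therefore equal the plain change. Of 14 regulatory and checkpoint genes tested of 19, 9 rose (5 of the 7 that were above background on all 12 arrays): Tnfrsf18 (GITR) by 3.92 ± 0.23, Tnfrsf4 (OX40) by 3.65 ± 0.30, Havcr2 (TIM-3) by 2.60 ± 0.23 and the MHC class II binding receptor gene Lag3, not above background on any 4 week array, by at least 2.07-fold. Cd274, the ligand of PD-1, rose by 1.92 ± 0.43 with overlap between the ages, at 6.50 to 9.05 and 8.73 to 10.34, and was not called after median scaling (limma adjusted p = 0.0885).

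**Figure D3:**
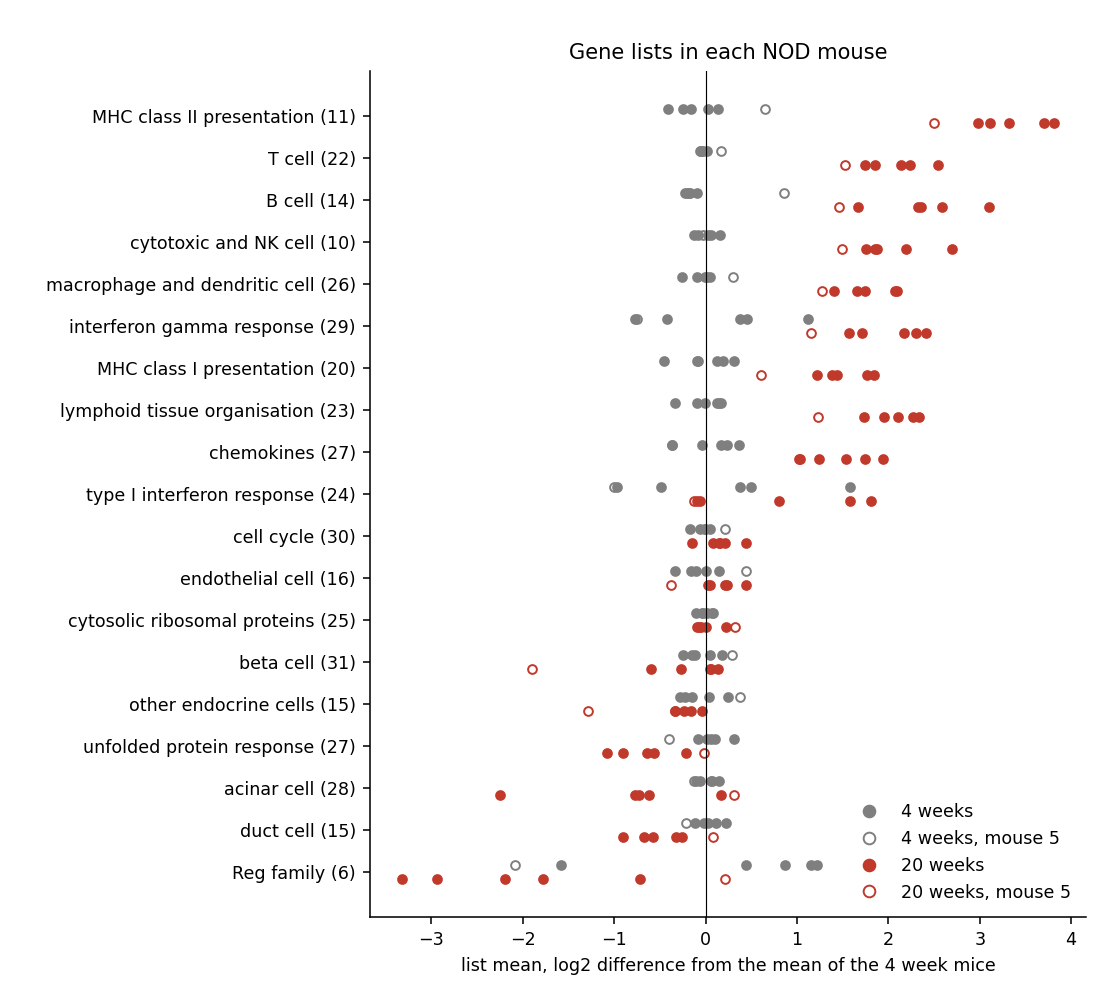
Mean over the tested genes of each list (number in brackets) in each mouse, as a log2 difference from the mean of the 4 week mice (horizontal axis), with 4 week mice in grey, 20 week mice in red and mouse 5 of each age as open circles. The 20 week mice lie above the 4 week mice in the 9 upper lists, the type I interferon list overlaps, and the beta cell list is lowest in 20 week mouse 5 at -1.90.

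B cell genes rose in 11 of 14 tested (20 in the list). Of the 14, 9 were well above background on all 20 week arrays and not on all 4 week arrays, and with no filter 11 of 19 were called. Ms4a1 (CD20) was 5.79 to 7.72 at 4 weeks (median 5.96) and 8.49 to 10.95 at 20 weeks (median 10.00), a change of 3.62 ± 0.43. Pou2af1, a B cell coactivator, rose by 4.39 ± 0.46, and the receptor chain gene Cd79b by 3.61 ± 0.54. Cd79a, the partner chain of Cd79b, was at 0.26 ± 0.08. One young mouse already carried these transcripts. The list mean was 0.86 in 4 week mouse 5 and -0.23 to -0.09 in the other 5, and Ighm in that mouse (10.88) was close to the lowest 20 week mouse (11.03). Without mouse 5 of both ages 11 genes rose. The pool list median was 0.77 and was not tested.

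Of 7 plasma cell genes tested, 2 rose and 2 fell, against 4.55% and 1.23% of all genes tested. Jchain and Mzb1, a chaperone of immunoglobulin assembly (2.48 ± 0.39), rose. Derl3 (-1.72 ± 0.37) and Fkbp11 (-2.15 ± 0.55), both of the endoplasmic reticulum and known to be high in other secretory cells as well, fell. Fkbp11 spread widely at 20 weeks, from 9.86 to 13.96, and divided by the pool its change was -1.15 (limma adjusted p = 0.152).

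Myeloid genes rose in 19 of 26 tested (29 in the list), and 16 of these 19 were well above background on all 12 arrays. Aif1, an actin-binding protein of macrophages, rose by 3.93 ± 0.24, from 6.82 to 8.0 (median 7.17) up to 10.37 to 11.91 (median 11.30). The beta-glucan receptor gene Clec7a rose by 3.65 ± 0.21, the complement gene C1qc by 2.91 ± 0.24, Itgax (CD11c) by 2.5 ± 0.20, Csf1r by 1.37 ± 0.19 and Adgre1 (F4/80) by 1.5 ± 0.27. Cd14 was at 0.64 ± 0.39 and Trem2 by -0.03 ± 0.23, and neither was called. Lyz2 was again high in 4 week mouse 5, at 12.57 against 9.33 to 10.46 in the others. Neutrophil genes were barely detected, with 2 of 13 tested: S100a9 was at 0.16 ± 0.86 and Mpo by -0.26 ± 0.09, and the mean of the pair was 2.07 in 4 week mouse 5 and -0.53 to -0.17 in the other 4 week mice.

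Chemokines rose in 12 of 27 tested (32 in the list), and in 6 of the 17 that were above background on all 12 arrays. Ccl8, a monocyte chemoattractant, rose by 4.51 ± 0.22, from 6.02 to 6.43 (median 6.23) up to 9.84 to 11.35 (median 10.77). Of the ligands of CXCR3, Cxcl9 rose by 4.41 ± 0.45. Cxcl10 was 1.99 ± 0.74 higher and missed the threshold (limma adjusted p = 0.0595), and Cxcl11 was at 0.79 ± 0.34. The differences between these ligands were not tested. Young mice differed in Cxcl9 and Cxcl10. At 4 weeks Cxcl9 was 6.14, 6.14 and 6.31 in mice 1, 3 and 5. It was 8.32, 8.29 and 8.0 in mice 2, 4 and 6, and Cxcl10 ranged from 8.81 to 13.22. Cxcl10 was called in 6 of the 30 alternatives run, such as without 4 week mouse 4 (2.42, limma adjusted p = 0.0231). Of the chemokine receptors, 8 of 15 tested rose, and 3 of the 8 that were above background on all 12 arrays; the list median was 1.71 over the 15 and 0.30 with that filter. The largest changes were those of Ccr7 (3.79 ± 0.33), Cxcr5 (3.02 ± 0.34) and Cxcr3 (2.95 ± 0.25). Ccr3 was the 1 that fell (-1.18 ± 0.40, limma adjusted p = 0.0432), and that call was lost in 11 of 30 alternatives, among them no filter on dim probes.

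Genes of lymphoid tissue rose in 14 of 23 tested (29 in the list); 9 of the 23 passed through the 20 week arrays, and of the 11 above background on all 12 arrays 5 rose. Glycam1, the L-selectin ligand made by high endothelial venules, was 6.28 to 8.08 at 4 weeks (median 6.50) and 8.42 to 12.04 at 20 weeks (median 11.78). It rose by 4.46 ± 0.56. The pool went the other way at -1.63, from a mean of 10.26 at 4 weeks to 8.64 at 20 weeks. The part of lymphoid tissue from outside the islets in these values was not tested. Mouse 5 was the lowest at 20 weeks (8.42, the others 11.09 to 12.04) and the highest at 4 weeks (8.08, the others 6.28 to 6.63). Fut7, a fucosyltransferase of selectin ligands, rose by 2.23 ± 0.35, the adhesion molecule gene Vcam1 by 3.03 ± 0.39, Itgb7 by 3.81 ± 0.38, the B cell chemokine Cxcl13 by 3.00 ± 0.53 and lymphotoxin beta, Ltb, by 2.90 ± 0.49. The adhesion genes Icam1 (0.74 ± 0.41) and Selp (0.70 ± 0.39) were not called. General endothelial genes were not called in any of 16 (median 0.07; -0.03 after median scaling).

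Cytokines rose in 6 of 21 tested (30 in the list), and in 3 of the 12 that were above background on all 12 arrays. Il1b, the inflammasome cytokine of myeloid cells, rose by 4.31 ± 0.25, from 7.06 to 8.13 (median 7.76) up to 11.45 to 12.90 (median 11.90). Il33, an alarmin, rose by 2.05 ± 0.38 and Tnf by 1.08 ± 0.21. Il6 was at 1.45 ± 0.64 (limma adjusted p = 0.107), and Il10 at 0.93 ± 0.18, under the floor although all 20 week mice lay above all 4 week mice.

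Genes that respond to interferon gamma rose in 21 of 29 tested (30 in the list), with a median of 1.85, though the young mice were uneven. The list mean at 4 weeks was 1.12 in mouse 4, 0.45 in mouse 2 and 0.38 in mouse 6, and -0.42, -0.77 and -0.75 in mice 1, 3 and 5. At 20 weeks it ran from 1.15 (mouse 5) to 2.41 (mouse 2), so the lowest old mouse and the highest young mouse nearly met. Irf8 rose by 3.03 ± 0.28, the guanylate binding gene Gbp2 by 1.99 ± 0.66, the GTPase genes Igtp and Tgtp1 by 2.59 ± 0.60 and 2.82 ± 0.61, and the feedback inhibitor Socs1 by 2.43 ± 0.42. After median scaling 6 of the 29 were called; after dividing by the pool, 14 were.

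In the type I interferon list 2 of 24 tested rose (8.33%, against 4.55% of all genes tested). The list median was 0.58, against -0.09 over all genes tested, and the difference from the interferon gamma list was not tested. The 2 were Ifi27l2a (3.48 ± 0.31) and the nucleic acid sensor Zbp1 (2.72 ± 0.35). Classical members showed large errors: Ifit3 was at 0.03 ± 0.99, Rsad2 at 0.19 ± 1.11 and Mx2 at 0.21 ± 0.92. Ifit1 and Isg15, given below with their promoters, had larger changes and were not called either. The mice of each age were far apart: at 4 weeks the list mean was 1.58 in mouse 4 and -0.97 and -1.0 in mice 3 and 5, and at 20 weeks it was 0.80, 1.58 and 1.81 in mice 1 to 3 and between -0.13 and -0.06 in mice 4 to 6.

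**Figure D4:**
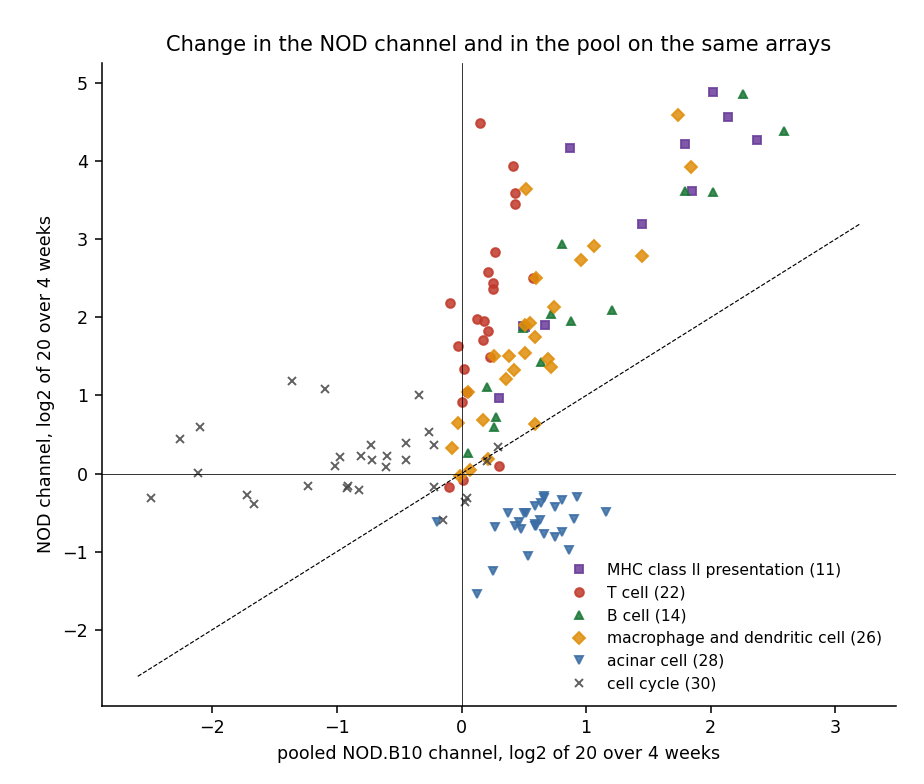
Log2 change from 4 to 20 weeks in the NOD channel (vertical axis) against the same change in the NOD.B10 pool (horizontal axis), 1 point per tested gene of 6 lists; the dashed line marks equal change. T cell genes lie near 0 in the pool (median 0.19), B cell and class II medians are 0.77 and 1.45 there, and the acinar (0.60) and cell cycle (-0.77) medians have the sign opposite to their NOD medians (-0.62 and 0.17).

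Interferon promoters were read in the same way. The gamma-activated site (GAS, TTCNNNGAA) stood in 9 of 22 promoters of the interferon gamma list (40.9%) against 8.13% of all, and the interferon-stimulated response element (ISRE, GAAANNGAAA) in 10 of 22 (45.5%) against 3.46%. In the type I list 7 of 17 held the ISRE (41.2%) and 4 the GAS (23.5%). Both strands were searched, the patterns may share letters, and members were known as interferon targets when the lists were made. Stretches are shown for 4 genes that rose and hold the GAS, and for 3 type I genes that were not called, with the motif in capitals.
Irf1, chr11:53769904-53769952, plus strand, bases -110 to -62: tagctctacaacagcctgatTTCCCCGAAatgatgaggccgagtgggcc
Irf8, chr8:120736167-120736233, plus strand, bases -191 to -125: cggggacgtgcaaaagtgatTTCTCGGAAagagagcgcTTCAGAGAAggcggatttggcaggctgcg
Igtp, chr11:58199491-58199539, plus strand, bases -65 to -17: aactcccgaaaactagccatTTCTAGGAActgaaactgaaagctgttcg
Psmb8, chr17:34198078-34198126, plus strand, bases -117 to -69: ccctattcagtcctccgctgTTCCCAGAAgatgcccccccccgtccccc
Ifit1, chr19:34640765-34640833, plus strand, bases -124 to -56: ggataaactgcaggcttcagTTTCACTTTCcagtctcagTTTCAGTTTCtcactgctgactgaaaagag
Rsad2, chr12:26456543-26456592, minus strand, bases -140 to -91: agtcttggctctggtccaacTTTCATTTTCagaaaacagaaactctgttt
Isg15, chr4:156200855-156200916, minus strand, bases -98 to -37: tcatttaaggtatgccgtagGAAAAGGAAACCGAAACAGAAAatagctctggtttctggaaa
Irf1, a transcription factor that holds the GAS letters, rose by 1.46 ± 0.32. The ISRE letters stood in Igtp and Socs1, which rose, and also in Ifit1 (0.87 ± 0.67) and Isg15 (0.94 ± 0.63), which were not called.

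Beta cell genes were not called in any of 31 tested (33 in the list; median -0.37). Ins1 ran from 15.32 to 16.31 at 4 weeks (median 16.02) and from 12.76 to 17.14 at 20 weeks (median 16.70), with a difference of 0.03 ± 0.61 (limma adjusted p = 0.973). The low value is that of mouse 5 alone. The other 5 mice of 20 weeks lay at 15.84 to 17.14 after quantile normalization, most of them above the 4 week range. Over the 30 alternatives the Ins1 difference ran from -0.92 to 0.78 and was never called, so its sign depended on the processing and the mice kept. Slc2a2, the glucose transporter GLUT2, was low in the same animal: 9.80 to 10.98 at 4 weeks, 6.95 in 20 week mouse 5 and 9.96 to 11.36 in the other 5. Mafa, a maturity factor, was 5.86 in that mouse and 6.90 to 7.25 in the others, against 6.96 to 7.80 at 4 weeks. The list mean at 20 weeks was -1.90 in mouse 5, -0.60 in mouse 6 and -0.27 to 0.14 in mice 1 to 4. Without mouse 5 the list median was -0.17 and no member was called. Among the small changes that passed the adjusted p but not the fold, Ucn3, a late maturity marker, was at -0.71 ± 0.17, the convertase gene Pcsk1 at -0.72 ± 0.22 and Ptprn2, an islet autoantigen, at -0.31 ± 0.07. Scaling to the 75th percentile called 2 members lower, of which 1 was Ins2 (-1.12, limma adjusted p = 0.0429); its main change was -0.10 ± 0.48.

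The same mouse was low in the other islet hormones, with 13.64 for Gcg (others 14.93 to 15.68) and 11.62 for Ppy (others 14.27 to 15.16). That array also had the weakest signal and the lowest T cell, B cell, myeloid and MHC list means of the 20 week group, and the part of signal strength in its values was not tested. Of 15 genes of the other endocrine cells 2 fell, against 1.23% of all genes tested. These were Irx1, an alpha cell factor (-1.13 ± 0.21), and Gc, the vitamin D binding protein of alpha cells (-1.12 ± 0.21). The pool differed by -0.98 and -0.80, and divided by it neither was called (limma adjusted p = 0.75 and 0.341). Gc was at -0.99, under the floor, without 20 week mouse 5. Among 16 genes normally kept low in beta cells, 1 rose (6.25%, near the 4.55% of all genes tested), the hexokinase gene Hk2 (1.23 ± 0.31, with overlap), which other cells of the preparation also express.

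The genes called lowest among those without overlap between the ages were of several tissues. Reg3a (-3.53) and Fkbp11 (-2.15) were called with overlap and are described with their lists. Krt20, an epithelial keratin, was 10.28 to 11.89 at 4 weeks (median 10.96) and 6.17 to 7.14 at 20 weeks (median 6.73), a fall of 4.22 on the log2 scale (SE 0.25; 18.6-fold; limma adjusted p = 8.45e-07), and the pool was at -1.88. Its probe lies at chr11:99289776-99289835 of mm9. Msln, mesothelin of the serosal lining, fell from 11.72 to 12.87 down to 7.27 to 11.15 (-2.57 ± 0.51) with -1.60 in the pool, and its ratio to the pool was not called (-0.75, limma adjusted p = 0.273). Mia changed by -1.91 ± 0.26 with 3 probes between -1.92 and -1.88, and the lectin gene Itln1, which mesothelium also expresses, by -1.85 ± 0.27. The others named by rank were Ccdc187 (-1.78 ± 0.32) and Noxa1 (-1.76 ± 0.34). All 20 week mice were below all 4 week mice in each of these 6 genes, which the rule that picked them required.

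The chaperones and helpers of the endoplasmic reticulum held 3 genes that fell among 27 tested, against 1.23% of all genes tested. The list median was -0.59. Pdia4, a disulfide isomerase, went from 11.92 to 13.30 (median 12.80) to 10.49 to 11.34 (median 10.90), a change of -1.83 ± 0.23. Creld2 (-1.64 ± 0.21) and Sdf2l1 (-1.46 ± 0.26) fell as well, without overlap, while Manf was at -0.93 ± 0.15 and Hsp90b1 at -0.72 ± 0.16, under the floor. The chaperone gene Hspa5 (-0.17 ± 0.26) and the stress factors Ddit3 (-0.07 ± 0.42) and Atf4 (-0.05 ± 0.19) were not called. Per mouse, the list mean at 20 weeks was -1.08, -0.90, -0.64, -0.57, -0.02 and -0.21 in mice 1 to 6, and the acinar list mean was -0.77, -2.25, -0.62, -0.73, 0.31 and 0.17; both were highest in mice 5 and 6, and the part of acinar RNA in the list was not tested. Without 20 week mouse 5, 7 genes fell, and without mice 5 and 6, 10.

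Exocrine genes varied between the old mice. None of 28 acinar genes was called (median -0.62), and the per mouse means were -2.25 in 20 week mouse 2, -0.77 to -0.62 in mice 1, 3 and 4 and 0.31 and 0.17 in mice 5 and 6, against -0.13 to 0.15 at 4 weeks. Cela1 was 14.79 in mouse 2 and 16.58 to 17.07 in the other 20 week mice. Without mice 5 and 6, 10 acinar genes were lower, and scaling to the 75th percentile or the median called 11 and 21. Krt19, a duct keratin, was the 1 duct gene of 15 that fell (-1.35 ± 0.43, limma adjusted p = 0.0319), and it was not called with no filter (limma adjusted p = 0.0568), divided by the pool (limma adjusted p = 0.0565), or without 4 week mouse 6 or 20 week mouse 1, 2 or 4 (limma adjusted p = 0.0514 to 0.0688). In the Reg family, lectins secreted by acinar and injured islet tissue, 1 of 6 tested fell, against 1.23% of all genes tested. Reg3a was 15.61 to 16.43 in 4 of the young mice and 11.41 and 11.55 in mice 3 and 5; at 20 weeks it was 8.93 to 13.27. Its change was -3.53 ± 1.04 (limma adjusted p = 0.0238), and the call was lost without 4 week mouse 1, 2 or 6 or 20 week mouse 2 or 4 (limma adjusted p = 0.0515 to 0.0530), and divided by the pool (limma adjusted p = 0.0722). Without 20 week mouse 5, 4 of the 6 were lower, and without mice 5 and 6, 5 were.

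Of 30 cell cycle genes 3 rose (10%, against 4.55% of all genes tested), each a subunit of the replicative helicase: Mcm3 by 1.18 ± 0.20, Mcm6 by 1.08 ± 0.17 and Mcm4 by 1.00 ± 0.20. In the pool the same genes were at -1.36, -1.10 and -0.34. Mki67, a marker of cycling cells, was 8.58 to 9.31 at 4 weeks and 9.29 to 9.96 at 20 weeks (0.60 ± 0.15, under the floor). The pool was at -2.10, so most of the change of 2.67 in the ratio of Mki67 to the pool came from the pool. The p-value of that ratio (limma adjusted p = 5.45e-06) does not measure the spread between pools. Mcm4 lies at the 2-fold floor and lost its call in 9 of 30 alternatives, and after median or 75th percentile scaling no cell cycle gene was called. Immediate early genes, known to respond to tissue handling as well as to stimuli in life, rose in 6 of 16 tested (37.5%, against 4.55%). Among them were Fosb (1.74 ± 0.39), Egr1 (1.68 ± 0.35), Egr2 (1.64 ± 0.32) and Nr4a1 (1.27 ± 0.29).

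In the remaining lists few genes were called, where 4.55% of all genes tested rose and 1.23% fell. Of 23 stellate cell and fibroblast genes 3 rose, the proteoglycan gene Dcn (1.66 ± 0.37), Thy1, which T cells share (1.63 ± 0.28), and Vim (1.36 ± 0.23), while Col1a1, the main fibrillar collagen, was at -0.27 ± 0.32 with -1.09 in the pool. Of 13 fetal and postnatal growth genes 1 fell, Igf1 (-1.08 ± 0.38, limma adjusted p = 0.0479), a call lost in 16 of 30 alternatives. Of 4 erythroid genes tested (list median -0.93; 11 in the list) Hbb-bt fell (-1.66 ± 0.38), a beta globin of red cells. No gene was called among 9 Schwann cell, 5 adipocyte, 19 oxidative stress and 25 cytosolic ribosomal genes; the ribosomal median was -0.02, and it was -0.50 after median scaling and 0.19 after cyclic loess.

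The other ages place these changes in time. With the NOD channel of all 24 arrays normalized together, the 12 week mice were compared with the same 4 week animals, so the values stand side by side and carry no test. The genes called higher at 20 weeks had a median change of 1.78 at 12 weeks and 1.70 at 20 weeks, and the genes called lower -0.88 and -1.19. T cell list means were 1.71 to 2.79 at 12 weeks and 1.56 to 2.59 at 20 weeks, and class II means 2.98 to 4.07 and 2.53 to 3.84, so these ranges overlapped. Single genes parted from that. Ifng had a mean of 10.31 at 12 weeks and 9.18 at 20 weeks, whereas Il1b went from 7.86 at 4 weeks to 10.42 and then 12.18, and Cxcr5 from 6.18 to 8.16 and 9.27. Ccdc187, low at 20 weeks (6.81), was still 8.88 at 12 weeks against 8.63 at 4 weeks. The 10 day mice were not uniform: their T cell means ran from -0.02 to 1.56 and their B cell means from -0.06 to 1.47, and Glycam1 had a mean of 11.01 there, near its level at 12 and 20 weeks (11.43 and 11.35) and above 4 weeks (6.84).

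**Figure D5:**
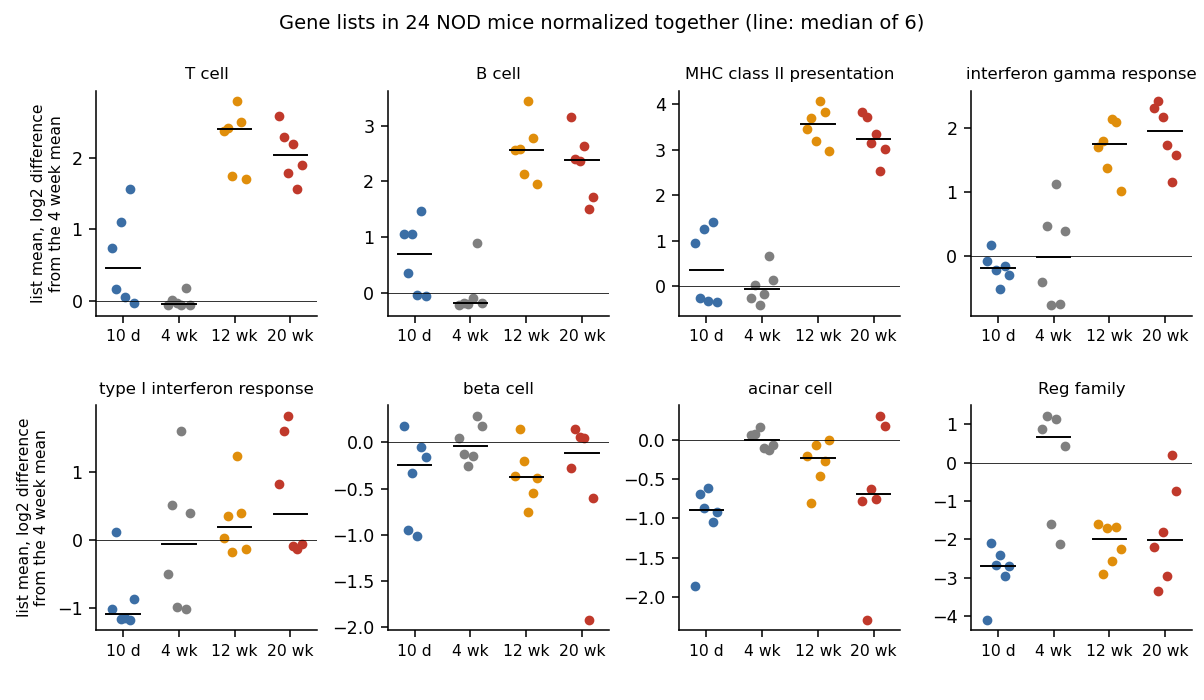
Mean of 8 gene lists in each of 24 NOD mice, as a log2 difference from the 4 week mean (vertical axis, a separate scale for each list), at 10 days, 4, 12 and 20 weeks; each point is a mouse and each line the median of 6. T cell, B cell and class II points overlap between 12 and 20 weeks, and the Reg family median is 0.66 at 4 weeks and -1.98 at 12 weeks.

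The size of change depended on the signal chosen for dim probes. The offset of 50 that steadies low signals also shortens their log2 differences: with the scanner software's processed signal the T cell median was 4.88 in place of 1.97, the B cell median 4.27 in place of 2.01 and the class II median 4.71 in place of 3.62, and 2158 genes were called. All 920 genes kept their sign in that setting.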

How the data were processed

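Islet RNA of single NOD mice was amplified and hybridised, per the labels' protocols, to 2-colour Agilent arrays. The deposited files hold spot intensities that the authors extracted with Agilent Feature Extraction, per the file headers: mean brightness and median local background per channel, not normalized, with flags. Probe positions are those of mm9, per the file headers. The depositors' ratio table was not used.

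From these, red signals of the 12 arrays were background corrected with normexp (offset 50), put on the log2 scale and quantile normalized in R 4.3.3 with limma 3.58.1; 1639 control spots of 45018 and outlier spots were left out. A probe was kept if well above background on at least 6 of 12 arrays (22342 of 41174), and the brightest probe stood for its gene. Of 28867 gene names 15912 were tested with limma, with Benjamini-Hochberg adjustment over all of them. A call needed an adjusted p under 0.05 and 2-fold. For 9381 of the 41174 probes the name is only that of the array file, which can be a clone or accession. Shares over all genes tested include such names. The green channel was treated alike, without a test. The number of arrays limits the precision. The script was tested on simulated data.

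The genes named by rule were the 8 highest and 8 lowest calls without overlap (passing over clone names, with at most 2 antigen receptor segments), the 3 largest calls of each of 32 lists and a set of fixed genes; other list members were named as examples after their values were seen, and a few genes are not reported here. The members and lists were chosen with earlier results of these data known. Alternatives covered background, scaling, filter, probe choice, model, replicate block, slide, the ratio to the pool and mice left out. Replicate numbers gave no sign of pairing the mice. Promoters came from RefSeq (GRCm38.p6); 8 of 11 class II, 22 of 29 interferon gamma and 17 of 24 type I genes had one.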

Additional observations from a re-analysis of the deposited data

Results flagged for a closer look

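Among 232 groups of 6 mice examined, 30 held 1 animal far from the other 5 by Dixon's ratio at its 95% critical value, a distance that chance gives in about 1 group of 20. Most belonged to mouse 5 of either age. At 4 weeks mouse 5 was high in B cell and plasma cell genes, with log2 intensities of 8.04 for Jchain, 10.88 for Ighm, 8.17 for Pou2af1, 7.72 for Ms4a1 and 7.36 for Mzb1. It was also high in the myeloid genes Lyz2 (12.57) and Adgre1 (8.16), in the T cell gene Cd3d (6.67), in the integrin gene Itgb7 (7.70) and in Glycam1 (8.08). Its list means were 0.86 for B cells, 0.17 for T cells and 2.07 for the 2 neutrophil genes.

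At 20 weeks mouse 5 was low in islet genes, with 12.76 for Ins1, 13.64 for Gcg, 11.62 for Ppy, 5.86 for Mafa and 6.95 for Slc2a2, and its list means were -1.90 for beta cells and -1.29 for the other endocrine cells. It was low as well in Ubd (10.83), Glycam1 (8.42) and Vim (10.99). That array had the lowest share of probes well above background (42.3%), and the part of this in the values was not tested.

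Other animals stood out in single genes. At 4 weeks these were mouse 3, with 9.83 for Ccdc187, 7.17 for Irf8 and 15.32 for Ins1, and mouse 4, with 11.18 for Krt19 and 10.59 for Egr1. At 20 weeks they were mouse 4, with 5.91 for Noxa1, and mouse 2, with 14.79 for Cela1.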

How the results depend on the processing

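Over 30 alternatives no named gene changed sign with its call, 69 gene values fell below the threshold and 23 passed it. The processed signal called 2158 genes (1172 higher, 986 lower) and plain background subtraction 1799 (1006 and 793). Scaling to the 75th percentile left 487 lower, and median scaling 481 higher and 563 lower. Asking for every array above background called 467 higher among 12010 genes; array weights called 520 lower and the ratio to the pool 119 lower. Leaving out 1 mouse gave 780 to 1279 calls, 651 to 820 of them higher and 129 (without 20 week mouse 2) to 459 (without 20 week mouse 5) lower. Without 20 week mice 5 and 6, 1647 were called, 746 lower; without mouse 5 of both ages, chosen after seeing the data, 489 were lower. The plasma cell median, -0.42, was 0.39 with no filter on dim probes, where more of the list was tested.

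With the replicate number as a block the calls numbered 843 (702 up, 141 down), and 838 of the 920 remained among them. Deviations of same-numbered mice correlated at -0.36 to -0.09, and no mouse correlated best with its own number. That gave no sign of pairing, and whether mice of a number shared their handling was not tested. Under the block Krt19 (limma adjusted p = 0.104) and Reg3a (limma adjusted p = 0.0836) were not called.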

Other observations

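A few inflammatory and stress genes were lower at 12 than at 4 weeks and higher again at 20 weeks. With all 24 arrays normalized together, and with no test, Il6 was at -1.75 from 4 to 12 weeks and 3.21 from 12 to 20 weeks on the log2 scale. Among chemokines the same order was seen for Cxcl1 at -0.91 and 2.16, Ccl7 at -0.68 and 1.98, and Ccl2 at -0.87 and 1.70. Others differed, with Ccl8 at 4.55 and 0.02, Ccl12 at 1.51 and -0.31, Ccl3 at 1.33 and 0.10, and Ccl4 at 1.70 and 0.13. The order of the first was also that of the stress genes Ddit3 at -1.66 and 1.59 and Trib3 at -1.75 and 1.09. These genes were picked after their values had been seen.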
